A study of Oryza sativa with 36 samples.

Results

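Class III peroxidases are haem enzymes that plants secrete into the cell wall and the vacuole, and they were followed here in the flag leaf, the uppermost leaf of a rice shoot, which feeds the filling grain. The members were all genes whose deposited description begins with "peroxidase precursor", which gave 124 of the 34623 genes listed in all 6 tables. Flag leaves came from the super-hybrid rice WFYT025 and from WFB and CHT025, its parents. Each variety was sampled on day 1 and day 10 after flowering, once in plants grown as early rice and once in plants grown as middle rice, here the early and the middle season. The 12 groups held 3 libraries each, 36 in all. No treatment or transgene is named in the labels for any group. The labels do not state that replicates were separate plants; the p-values thus speak to the spread among libraries, and that spread may be technical. Season cannot be told apart from any batch of sampling or sequencing.

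Peroxidases of this class use hydrogen peroxide to oxidise phenolic compounds. In the wall they join monolignols into lignin and cross-link wall polymers, which stiffens the wall; in another reaction mode they release reactive oxygen, which can loosen it. Rice, like other grasses, has a large family of these genes, many of them in tandem arrays, and single members differ in organ and in response to wounding, pathogens and age. Hydrogen peroxide for these reactions comes from membrane-bound respiratory burst oxidases and from amine oxidases, while phenylalanine ammonia-lyase and the enzymes after it make the phenolic substrates.

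The deposited annotation fitted the family name for most members. Of the 124 members, 122 carried EC 1.11.1.7, the number for peroxidases of this kind, and 121 had a gene ontology term for the extracellular region or the wall. The remaining 2 members carried EC 1.11.1.11, the number for L-ascorbate peroxidase. They are LOC_Os04g51300, annotated to the chloroplast thylakoid lumen with no extracellular term, and LOC_Os08g41090, annotated both to the extracellular region and to L-ascorbate peroxidase activity. These 2 genes were the most abundant members, and by their annotation they do not belong to the secreted class III group, so their summed level is given apart from that of the other 122. The counts of called members include them, and counts for the other 24 tested members are given beside these. One further gene, LOC_Os09g29490, was annotated to the vacuole. Lignin biosynthesis was annotated for 30 members and wall organization for 67.

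Most of the family was near or below the level that could be tested. FPKM is a read count scaled by transcript length and library size; the depth of the libraries is unknown because only FPKM was deposited. A gene was tested when it reached 1 FPKM in at least 3 of the 36 libraries, which 26 members (21.0%) and 18585 of all genes (53.7%) did. Of the other 98 members, 30 were listed at 0 in every library and 68 were above 0 in some library, with a highest single value of 1.5 FPKM in LOC_Os01g22352. Below 0.5 FPKM in every library were 81 members. A member can pass the filter only through the group in which it is high, so counts and medians over the 26 describe those members and not the family.

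FPKM summed to between 532276 and 567391 per library, and 21656 to 23811 genes were above 0. The 5 leaf markers (3 Rubisco small subunit genes, Rubisco activase and a light-harvesting gene) summed to means of 27497 to 46905 FPKM in the 12 groups. The 5 floral MADS-box genes summed to 1.0 to 6.31 FPKM. The 3 seed storage protein genes summed to 2.93 to 110.31 FPKM in single libraries of 11 groups and to 150.79 to 211.86 FPKM in WFB on day 1 of the middle season, in which group several members described below were also high. The 3 secondary-wall cellulose synthase genes summed to 2.16 ± 1.08 FPKM (SD, n = 3) in CHT025 and to 1.62 ± 1.62 FPKM in the hybrid on day 1, middle season, and to at most 0.53 FPKM on average elsewhere. The part of these markers in the peroxidase results was not tested. In bulk leaf, fewer cells of a type and less RNA per cell cannot be told apart.

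Among the 26 tested members, mean levels ran from 0.378 FPKM for LOC_Os01g16450 to 52.3 FPKM. The highest was LOC_Os04g51300, with a range of 19.89 to 113.22 FPKM over the 36 libraries, and LOC_Os08g41090 averaged 30.8 FPKM (range 1.79 to 107.66). Next in order came the vacuole-annotated LOC_Os09g29490 with 9.44 FPKM, LOC_Os01g07770 with 7.41 FPKM and LOC_Os07g48040 with 7.12 FPKM. Only 5 members were at 1 FPKM or more in all 36 libraries, and 8 stayed below 3 FPKM in every group mean. The median ratio of the highest to the lowest group mean was 2.03 on the log2(FPKM + 1) scale for tested members and 1.20 for all tested genes, a description with no test. Members that pass the filter only through a group in which they are high have a large ratio by construction. The 2 medians thus do not show that members vary more than genes at large.

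**Figure D1:**
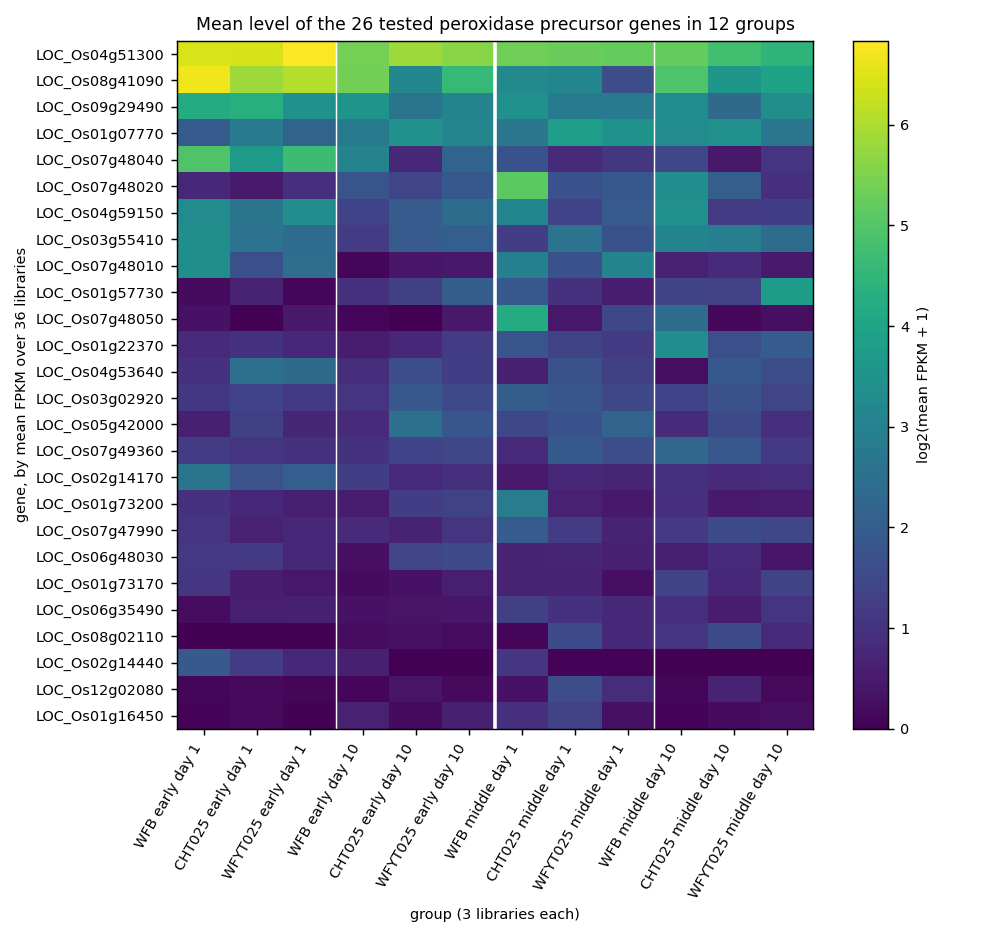
Mean level of each tested member in each group, as log2(mean FPKM + 1), with genes ordered by their mean over 36 libraries and groups by season and day. LOC_Os04g51300 and LOC_Os08g41090 are brightest in the early season on day 1, while LOC_Os07g48020 and LOC_Os07g48050 stand out in WFB on day 1 of the middle season and LOC_Os01g57730 in the hybrid on day 10 of that season.

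The summed level of the 124 members was highest on day 1 of the early season in each variety. Without the 2 ascorbate-peroxidase-annotated genes, the WFB mean was highest on day 1 of the middle season instead. In WFB the 124 members summed to 289.88, 292.69 and 292.67 FPKM on day 1 of the early season and to 118.43, 128.1 and 122.89 FPKM on day 10. The sums went from 212 ± 6.02 to 109 ± 3.36 FPKM (SD, n = 3) in CHT025 and from 256 ± 2.73 to 122 ± 5.07 FPKM in WFYT025. Day 10 was thus 0.422, 0.515 and 0.477 times day 1 in WFB, CHT025 and WFYT025. In the middle season the same ratios were 0.905, 0.835 and 0.986. The 2 ascorbate-peroxidase-annotated genes made up 24.0% to 71.0% of the summed FPKM of the 124 members in single libraries. Without them, the other 122 members summed in the early season to 103 ± 7.89 and 41.3 ± 3.17 FPKM in WFB, 71.2 ± 5.17 and 45.6 ± 1.19 FPKM in CHT025, and 76.1 ± 3.17 and 50.9 ± 2.47 FPKM in WFYT025, on day 1 and day 10. In the middle season the 122 summed on day 1 and day 10 to 116 ± 27.3 and 82.6 ± 9.65 FPKM in WFB. The same sums were 60.6 ± 3.88 and 51.0 ± 1.75 FPKM in CHT025, and 54.2 ± 2.37 and 55.6 ± 1.20 FPKM in WFYT025. In WFB on day 1 of the middle season the 122 reached 94.45, 107.65 and 146.93 FPKM, the widest spread of any group.

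**Figure D2:**
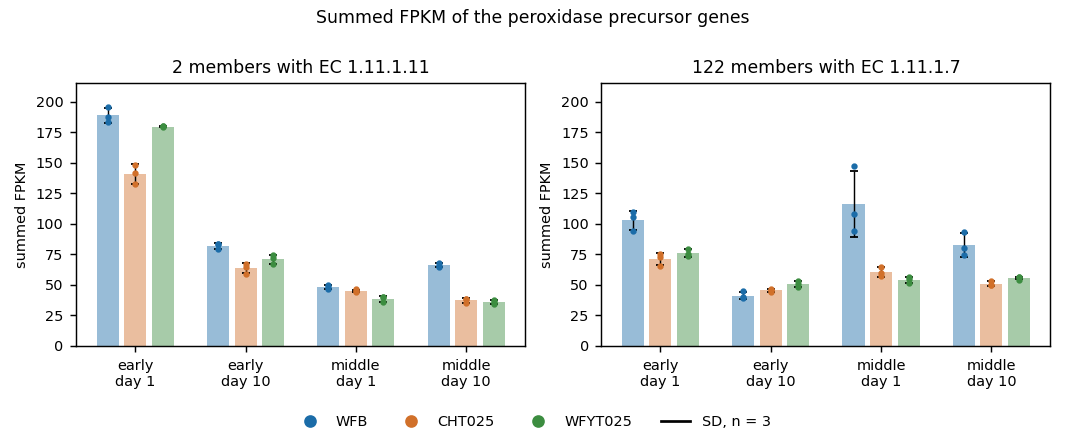
Summed FPKM of the 2 ascorbate-peroxidase-annotated genes (left) and the other 122 members (right); bars are means of 3 libraries, points single libraries and error bars the SD. The left panel is highest on day 1 of the early season in all 3 varieties, and the right panel is highest in WFB on day 1 of either season.

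In the early season, more tested members were called lower than higher on day 10 in WFB and CHT025. In WFYT025 the same order was seen in the calls, but not at an unadjusted p or with a smaller pseudocount. The chromosome 7 genes LOC_Os07g48010 and LOC_Os07g48040 and the ascorbate-peroxidase-annotated LOC_Os08g41090 fell in all 3 varieties. A member was called when limma gave a Benjamini-Hochberg adjusted p below 0.05 over all tested genes and the change was at least 2-fold, both on log2(FPKM + 1), which understates changes of low genes. In WFB 8 members were lower and 0 higher on day 10, where 10.5% of all tested genes were lower and 7.13% higher. In CHT025 5 were lower and 1 higher, where 6.48% and 3.37% of all genes were. In WFYT025 6 were lower and 2 higher, where 6.19% and 6.0% were. Without the 2 ascorbate-peroxidase-annotated genes the counts of lower and higher members were 6 and 0, 4 and 1, and 4 and 2 of 24. At an unadjusted p below 0.05, WFB had 12 decreases and 4 increases, CHT025 had 10 and 8, and WFYT025 had 10 and 11. With a pseudocount of 0.1 FPKM in place of 1, 8 were lower and 8 higher in WFYT025. With quantile normalization the WFB split was 8 lower and 2 higher. Here and below, shares of all genes belong to the main calls only. Counts at an unadjusted p or in another setting have no such share beside them. LOC_Os07g48020 accounted for a count of 1 higher in WFB when replicate 2 or 3 of day 1 or replicate 1 or 3 of day 10 was left out, with log2 changes of 1.04 to 1.18 in place of 0.96.

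LOC_Os07g48040, annotated to lignin biosynthesis, stood at 28.42, 30.39 and 30.41 FPKM in WFB on day 1 of the early season and at 7.88, 7.28 and 6.67 FPKM on day 10. The 2 days did not overlap, and the log2 change was -1.89 ± 0.13 (SE, adjusted p = 3.57e-14). In CHT025 it stood at 10.94, 11.89 and 13.52 FPKM and then at 1.06, 0.44 and 0.69 FPKM, a log2 change of -2.93 ± 0.13 (adjusted p = 1.67e-18), the largest decrease of a member there. In WFYT025 it went from 25.97, 22.88 and 24.91 FPKM to 3.54, 3.68 and 3.48 FPKM (log2 -2.48 ± 0.13, adjusted p = 7.39e-17).

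LOC_Os07g48010, also annotated to lignin biosynthesis, was lower on day 10 in 5 of the 6 day comparisons. WFB libraries gave 7.69, 10.66 and 10.61 FPKM on day 1 of the early season, and 0 (listed), 0.22 and 0.07 FPKM on day 10. That was the largest decrease of a member in WFB, with a log2 change of -3.27 ± 0.28 (adjusted p = 1.49e-11). In the early season it also fell in CHT025 (log2 -1.25 ± 0.28, adjusted p = 0.000324) and in WFYT025 (-1.94 ± 0.28, adjusted p = 5.93e-07). In the middle season it went from 8.51, 7.5 and 6.32 FPKM to 0.28, 0.66 and 0.32 FPKM in WFYT025 (log2 -2.57 ± 0.28, adjusted p = 4.01e-09). WFB libraries on day 1 of the middle season gave 2.38, 3.73 and 14.15 FPKM, so 1 library set the mean; all 3 were above the day 10 values of 0.45, 0.38 and 0.77 FPKM. In CHT025 in the middle season the log2 change was -0.90 (adjusted p = 0.0113), under the 2-fold limit.

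The other early decreases differed between varieties. LOC_Os03g55410 had the second largest decrease of a member in WFB, from 7.5, 11.28 and 9.32 FPKM to 0.72, 1.38 and 1.72 FPKM (log2 -2.20 ± 0.16, adjusted p = 1.62e-13). The wall-organization gene LOC_Os04g59150 went from 8.76 ± 1.03 to 1.57 ± 0.323 FPKM in WFB (SD, n = 3; log2 -1.93 ± 0.12). LOC_Os09g29490 was lower in CHT025, from 17.22, 19.39 and 18.65 FPKM to 5.89, 4.67 and 5.14 FPKM (log2 -1.64 ± 0.11, adjusted p = 9.44e-14). A pair of members rose: LOC_Os05g42000 went from 1.36, 1.64 and 1.34 to 4.41, 5.19 and 4.53 FPKM in CHT025 (log2 1.22 ± 0.14, adjusted p = 1.31e-08) and also rose in WFYT025 (log2 1.11 ± 0.14, adjusted p = 7.68e-08). LOC_Os01g57730 rose in WFYT025 from 0.07, 0.09 and 0.06 to 3.21, 3.02 and 2.94 FPKM (log2 1.92 ± 0.14, adjusted p = 3.99e-13). Over the same days LHY (LOC_Os08g06110), a clock gene with a transcript peak around dawn, rose. It went from 23.7 to 385 FPKM in WFB, from 123 to 688 FPKM in CHT025 and from 63.2 to 623 FPKM in WFYT025. The 3 time-of-day genes LHY, PRR1 and GI were also summed on day 1 and day 10. Their sums were 631 and 711 FPKM in WFB, 516 and 897 FPKM in CHT025, and 535 and 883 FPKM in WFYT025. Each rise was smaller than that of LHY alone, so PRR1 and GI together fell. In the middle season the sums were 715 and 582, 772 and 737, and 1020 and 629 FPKM in the same order. The part of these genes in the peroxidase changes was not tested.

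**Figure D3:**
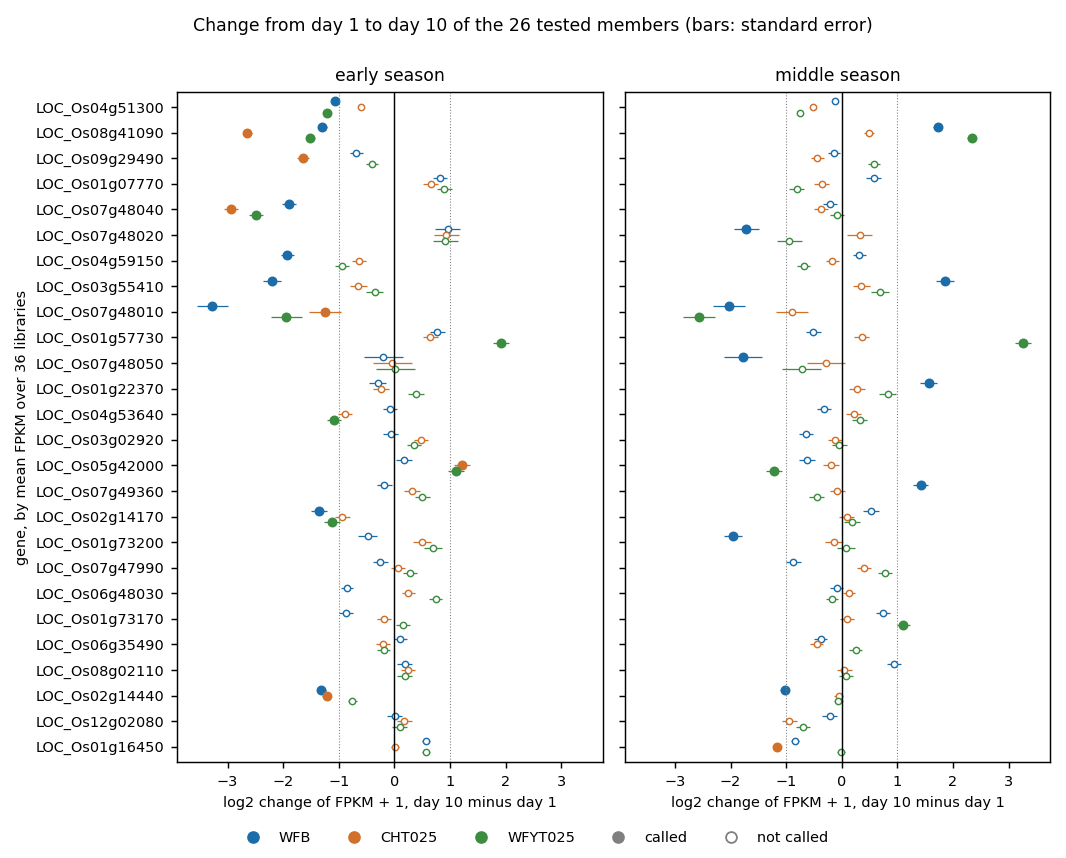
Log2 change of FPKM + 1 from day 1 to day 10 for each tested member, by season and variety; bars are standard errors, filled points were called and dotted lines mark a 2-fold change. In the early season the largest changes lie to the left, with LOC_Os07g48010 at -3.27 in WFB; in the middle season LOC_Os01g57730 in WFYT025 lies farthest to the right, at 3.26.

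In the middle season members went both ways in WFB and WFYT025, and 1 was called in CHT025. In WFB 4 were higher and 5 lower on day 10, where 5.14% and 4.46% of all genes were. In CHT025 0 were higher and 1 lower, where 1.65% and 2.18% were; 4 were higher at an unadjusted p below 0.05. In WFYT025 3 were higher and 2 lower, where 7.92% and 1.64% were, and with quantile normalization the split was 3 higher and 5 lower. The CHT025 count of lower members was 2 when replicate 1 of either day was left out (LOC_Os07g48010, log2 -1.07 and -1.04) or replicate 2 of either day (LOC_Os12g02080, log2 -1.11 and -1.04, against -0.94 with all libraries). Without the 2 ascorbate-peroxidase-annotated genes, WFB had 3 increases and 5 decreases, WFYT025 had 2 and 2, and the CHT025 counts stayed at 0 and 1.

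LOC_Os01g57730, a wall-organization gene, had the largest increase of any member in any day comparison. Hybrid libraries of the middle season stood at 0.62, 0.3 and 0.41 FPKM on day 1 and at 11.75, 12.88 and 13.86 FPKM on day 10. The log2 change was 3.26 ± 0.14 (SE, adjusted p = 1.32e-18). In WFB its libraries held 2.32, 3.15 and 2.66 FPKM on day 1 and 1.93, 1.04 and 1.91 FPKM on day 10, and in CHT025 0.96 ± 0.174 and 1.57 ± 0.695 FPKM (SD, n = 3); neither change was called. LOC_Os08g41090 rose in WFB from 8.4, 7.92 and 8.6 to 30.42, 32.59 and 26.63 FPKM (log2 1.73 ± 0.08, adjusted p = 3.35e-17) and in WFYT025 from 2.6, 1.79 and 1.96 to 14.76, 14.42 and 14.83 FPKM (log2 2.34 ± 0.08, adjusted p = 1.3e-20). LOC_Os03g55410 rose in WFB from 0.77, 1.62 and 1.75 to 7.32, 6.58 and 8.58 FPKM (log2 1.86 ± 0.16, adjusted p = 1.43e-11). Libraries of day 1 and day 10 did not overlap in any of these 4 increases.

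Decreases in the middle season included LOC_Os01g73200 in WFB, from 5.31, 5.7 and 8.37 to 0.96, 0.57 and 1.22 FPKM (log2 -1.95 ± 0.17, adjusted p = 1.39e-11). LOC_Os05g42000, which rose in WFYT025 in the early season, fell there in the middle season from 3.87, 3.74 and 2.93 to 0.96, 1.25 and 0.6 FPKM (log2 -1.23 ± 0.14, adjusted p = 1.3e-08). The only member called in CHT025 was LOC_Os01g16450, with 1.62, 1.4 and 1.67 FPKM on day 1 and 0.19, 0.15 and 0.08 FPKM on day 10 (log2 -1.17 ± 0.07, adjusted p = 9.78e-14). Secondary-wall cellulose synthases were also highest on day 1 in that group, at 2.16 ± 1.08 FPKM against 0.22 ± 0.044 FPKM on day 10. In WFYT025 they were at 1.62 ± 1.62 and 0.107 ± 0.038 FPKM, and LOC_Os01g16450 at 0.227 and 0.217 FPKM. In WFB they were at 0.173 and 0.07 FPKM, and LOC_Os01g16450 at 0.9 and 0.053 FPKM. The part of the cellulose synthases was not tested. Across the 6 day comparisons, 12 tested members were called lower only, 4 higher only, 3 in both directions and 7 in none; among all tested genes the shares were 14.2%, 12.8%, 6.52% and 66.4%. The median log2 change of the tested members in WFB, CHT025 and WFYT025 was -0.28, -0.11 and 0.13 in the early season and -0.22, -0.10 and -0.03 in the middle season; for all tested genes the medians lay between -0.15 and 0.18.

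**Figure D4:**
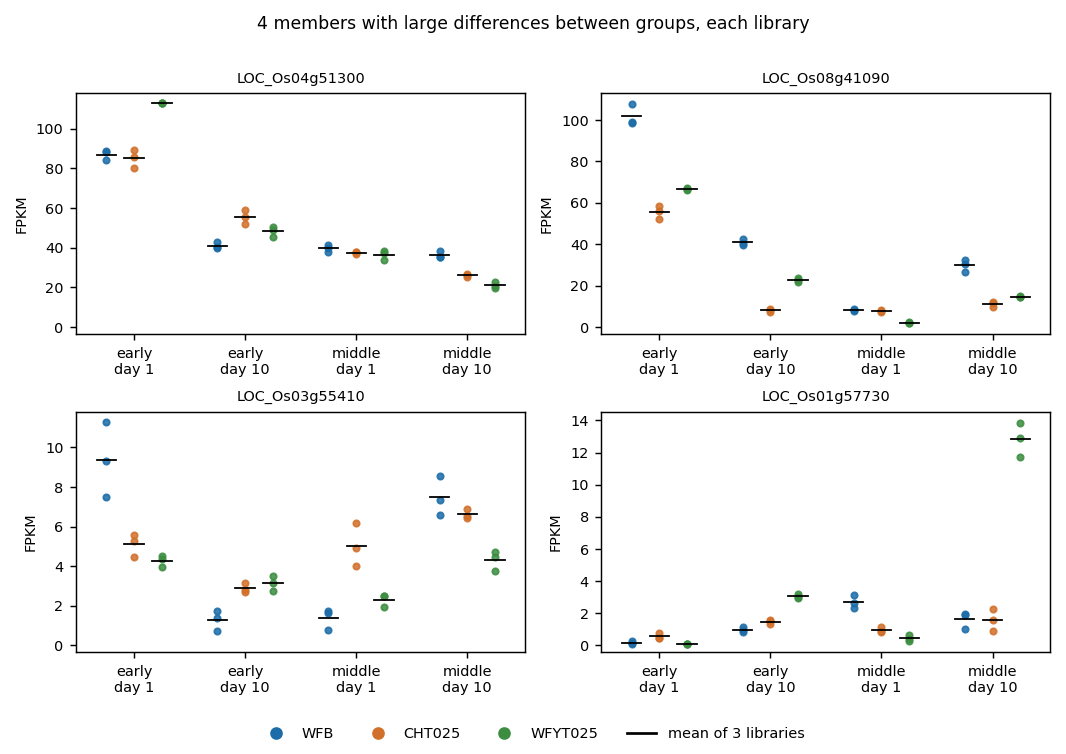
FPKM of 4 members in each library, by season and day; points are libraries and lines are means of 3. LOC_Os04g51300 and LOC_Os08g41090 are highest on day 1 of the early season, LOC_Os03g55410 in WFB is high on day 1 early and on day 10 in the middle season, and LOC_Os01g57730 reaches 11.75 to 13.86 FPKM in the hybrid on day 10, middle season.

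Whether the change over the 10 days differed between seasons was tested as the day change of the middle season minus that of the early season. In WFB 9 members had a higher and 5 a lower change in the middle season, where 21.5% and 11.5% of all genes did. In CHT025 7 were higher and 4 lower, where 7.97% and 5.57% were, and with quantile normalization 4 and 4. In WFYT025 6 were higher and 3 lower, where 16.4% and 7.4% were, and with quantile normalization 6 and 5. In WFB the member with the largest difference was LOC_Os03g55410, which fell in the early and rose in the middle season (difference 4.05 ± 0.22 on the log2 scale, adjusted p = 2.5e-16). LOC_Os08g41090 had a higher change in the middle season in all 3 varieties: the difference was 3.02 ± 0.12 for WFB, 3.13 ± 0.12 for CHT025 and 3.85 ± 0.12 for the hybrid, with adjusted p of 5.55e-20, 1.57e-19 and 2.85e-22. For LOC_Os07g48040 the difference was 1.68, 2.56 and 2.40 in the same order; its middle-season level was already low on day 1. The difference of 1.24 for LOC_Os07g48010 in WFB was 0.80 without replicate 1 of day 1 of the middle season. The median difference of the tested members was 0.42, -0.02 and 0.34 in WFB, CHT025 and WFYT025, beside 0.35, 0.12 and 0.25 for all tested genes. Without the 2 ascorbate-peroxidase-annotated genes it was 0.03, -0.17 and 0.07, and the higher counts were 8, 6 and 5, with the lower counts as before.

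Between the seasons, LOC_Os04g51300, LOC_Os08g41090 and LOC_Os07g48040 were lower in the middle season on day 1 in all 3 varieties. On day 1, 5 members were higher and 5 lower in the middle season in WFB, where 13.5% and 13.9% of all genes were; with quantile normalization 8 and 5. In CHT025 5 were higher and 6 lower, where 9.33% and 6.78% were, and with quantile normalization 3 and 7. In WFYT025 2 were higher and 6 lower, where 8.77% and 13.2% were, and with quantile normalization 3 and 5. On day 10 the counts were 7 higher and 1 lower in WFB, where 9.23% and 2.34% were, 1 and 1 in CHT025, where 5.2% and 1.37% were, and 1 and 4 in WFYT025, where 7.51% and 2.84% were. The CHT025 split on day 10 was 1 higher and 3 lower with quantile normalization. It had 2 higher members without early replicate 2 (LOC_Os03g55410, log2 1.02) or middle replicate 3 (LOC_Os07g47990, 1.05), and 2 lower without early replicate 1 or 3 or middle replicate 3 (LOC_Os05g42000, -1.03, -1.01 and -1.11). Without the 2 ascorbate-peroxidase-annotated genes the lower counts were 3, 4 and 4 in WFB, CHT025 and WFYT025 on day 1 and 1, 0 and 3 on day 10, and the higher counts were the same.

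LOC_Os04g51300 and LOC_Os07g48040 were lower in the middle season in 5 of the 6 comparisons each. LOC_Os04g51300 in WFYT025 on day 1 gave 113.03, 112.87 and 113.22 FPKM in the early season and 37.1, 38.34 and 33.78 FPKM in the middle season (log2 -1.61 ± 0.05, adjusted p = 4.96e-22). LOC_Os07g48040 in WFYT025 on day 1 was 24.6 ± 1.57 FPKM early and 1.16 ± 0.174 FPKM in the middle season (SD, n = 3; log2 -3.57 ± 0.13). The largest season difference of a member was that of LOC_Os08g41090 in WFYT025 on day 1, from 66.15, 66.98 and 66.79 to 2.6, 1.79 and 1.96 FPKM (log2 -4.45 ± 0.08, adjusted p = 3.48e-28). LHY in that comparison went from 63.2 to 844 FPKM, and the 3 time-of-day genes together from 535 to 1020 FPKM. Their part was not tested.

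Of the members higher in the middle season on day 1, LOC_Os07g48020 was called in WFB and CHT025 and LOC_Os01g07770 in CHT025 and WFYT025. LOC_Os07g48020 was also called in the hybrid without early replicate 1 (log2 1.02 in place of 0.92), and the CHT025 call of LOC_Os01g07770 was lost without early replicate 1 (log2 0.80) or middle replicate 2 (0.94). On day 1 in CHT025 LOC_Os08g02110 went from 0.04, 0.04 and 0.03 to 1.57, 2.3 and 1.87 FPKM (log2 1.48 ± 0.13, adjusted p = 1.61e-11). LOC_Os12g02080 went from 0.08, 0.23 and 0.07 to 2.17, 1.39 and 2.59 FPKM (log2 1.42 ± 0.13, adjusted p = 5.4e-11) in the same group, where the secondary-wall cellulose synthases were also highest. The ends of rice chromosomes 11 and 12 share a duplicated segment, and LOC_Os11g02100 and LOC_Os11g02130 are members at that end, so reads of LOC_Os12g02080 may be split with a copy and its value is uncertain. In WFB on day 10 LOC_Os01g22370 went from 0.39, 0.28 and 0.61 to 12.51, 7.04 and 8.27 FPKM (log2 2.82 ± 0.15, adjusted p = 2.48e-16). LOC_Os01g07770 in WFYT025 on day 1 went from 3.42, 3.6 and 3.7 to 12.37, 9.05 and 9.61 FPKM (log2 1.30 ± 0.13, adjusted p = 4.03e-10), and its difference in CHT025 on that day was 1.0 (adjusted p = 8.55e-08). Over the 6 season comparisons 13 tested members were called higher only, 8 lower only, 2 in both directions and 3 in none; among all tested genes the shares were 22.7%, 18.9%, 3.55% and 54.8%. The median season difference of the tested members lay between -0.06 and 0.37 on the log2 scale, beside -0.11 to 0.19 for all tested genes; without the 2 ascorbate-peroxidase-annotated genes it lay between -0.03 and 0.42.

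Some neighbouring members shared a pattern and others did not. Taking members on 1 chromosome with locus numbers at most 30 apart as neighbours, 76 members lay in 26 runs, and 17 of these were tested. The run from LOC_Os07g47990 to LOC_Os07g48060 on chromosome 7 held 7 members, of which 5 were tested, the most of any run, and all 5 are annotated to lignin biosynthesis. LOC_Os07g48040 was high on day 1 of the early season, LOC_Os07g48010 on day 1 of both seasons, and LOC_Os07g48020 and LOC_Os07g48050 in WFB in the middle season. LOC_Os07g47990 also had its highest mean in WFB on day 1 of the middle season, at 2.98 FPKM. LOC_Os07g48020 in WFB on day 1 gave 0.28, 0.87 and 0.97 FPKM in the early season and 24.28, 28.59 and 48.54 FPKM in the middle season (log2 4.31 ± 0.22, adjusted p = 3.77e-17). For LOC_Os07g48050 the same groups held 0.27, 0.42 and 0.08 FPKM and 12.71, 15.94 and 24.16 FPKM (log2 3.85 ± 0.35, adjusted p = 2.17e-11). In both genes the third replicate was the highest, as it was for LOC_Os07g48010. On day 10 of the middle season WFB was still at 9.89, 8.26 and 9.22 FPKM for LOC_Os07g48020 and at 5.54, 4.02 and 3.38 FPKM for LOC_Os07g48050. Both changes from day 1 were decreases, with log2 -1.72 ± 0.22 (adjusted p = 8.28e-08) and -1.78 ± 0.35 (adjusted p = 4.76e-05).

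Over the 36 libraries, Pearson's r of log2(FPKM + 1) between LOC_Os07g48020 and LOC_Os07g48050 was 0.87 and that between LOC_Os07g48020 and LOC_Os07g48040 was -0.39. It was 0.62 between LOC_Os07g47990 and LOC_Os07g48020 and 0.42 between LOC_Os07g48010 and LOC_Os07g48040. For the other neighbouring tested pairs of the run it lay between -0.16 and 0.07. These are descriptions over libraries that share groups of 3. Sequences of the members were not used here, so whether reads are split between near-identical neighbours was not tested. In the hybrid on day 1, middle season, LOC_Os07g48050 gave 0.08, 0.2 and 5.09 FPKM, so 1 of 3 libraries held nearly all of its signal. Its mean on day 10 was 0.21 FPKM, near the 2 low libraries of day 1. The day change there of -0.72 was not called and rests on the high library, replicate 3. It became -1.16 or -1.09 when low replicate 1 or 2 of day 1 was left out, which gives the high library more weight. The seed storage genes summed to 174 ± 32.9 FPKM in WFB on day 1 of the middle season and 42.0 ± 41.8 FPKM on day 10. Their part was not tested.

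**Figure D5:**
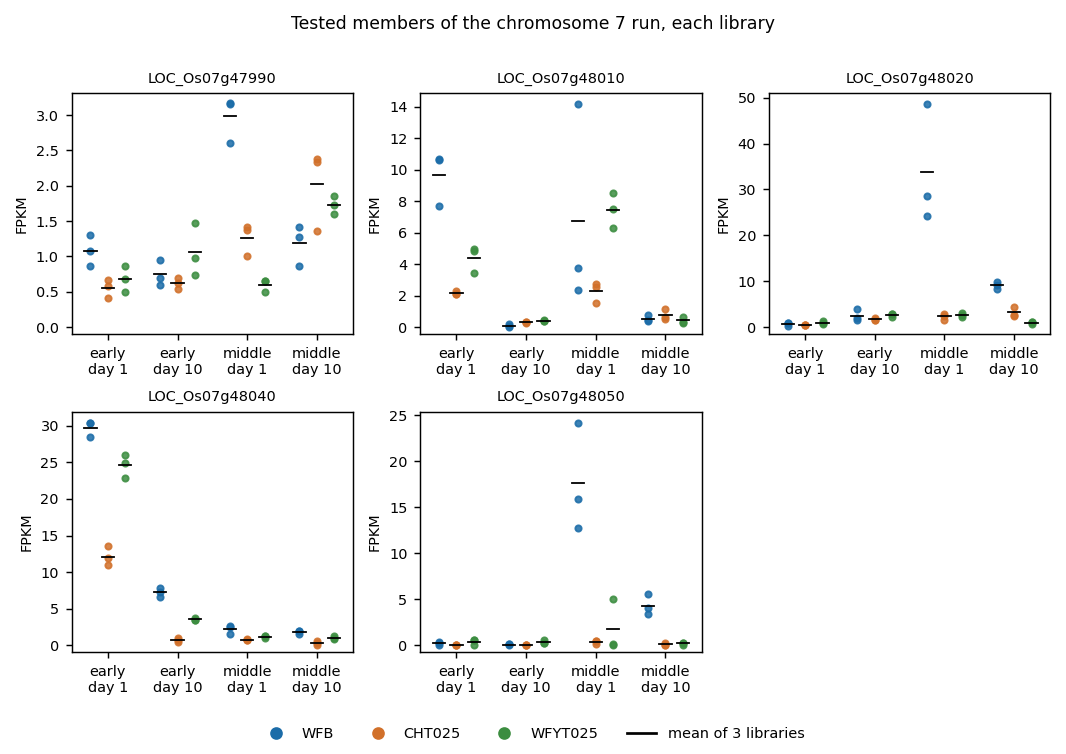
FPKM of the 5 tested members of the chromosome 7 run in each library, by season and day; points are libraries and lines are means of 3, and each panel has its own linear scale. LOC_Os07g47990, LOC_Os07g48020 and LOC_Os07g48050 are highest in WFB on day 1 of the middle season, whereas LOC_Os07g48040 is highest on day 1 of the early season.

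The number of members called between the parents was lower in the early than in the middle season. That order turned on day 10 with a smaller pseudocount, and at an unadjusted p the seasons were close on that day. On day 1 of the early season 1 member was higher and 2 were lower in CHT025 than in WFB, where 6.65% and 4.36% of all genes were. On day 10 the counts were 2 and 2, where 6.3% and 5.22% were. In the middle season 6 were higher and 5 lower on day 1, where 9.02% and 6.6% were, and 1 higher and 6 lower on day 10, where 4.04% and 4.7% were. With quantile normalization the split on day 1 of the middle season was 3 higher and 9 lower. At an unadjusted p below 0.05, 6 were higher and 9 lower on day 1 of the early season, and 11 and 6 on day 10. In the middle season 7 and 12 were on day 1, and 6 and 12 on day 10. With a pseudocount of 0.1 FPKM the counts were 4 and 5 on day 1 and 8 and 5 on day 10 of the early season; for middle rice they were 6 and 9 and then 3 and 9. Without the 2 ascorbate-peroxidase-annotated genes, 1 was lower on day 10 of the early season and 5 on day 10 of the middle season, with the other counts the same. Without CHT025 replicate 1 on day 1 of the early season 2 members were higher, LOC_Os01g07770 joining with a log2 difference of 1.02 in place of 0.82. The median difference of the tested members was -0.08, 0.24, -0.15 and -0.15 in these 4 comparisons, beside 0.01, 0.06, 0.22 and 0.07 for all tested genes.

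LOC_Os04g53640, a wall-organization gene, was higher in CHT025 in 3 of the 4 comparisons. On day 1 of the early season it stood at 4.24, 4.6 and 5.05 FPKM in CHT025 and 0.77, 0.99 and 1.15 FPKM in WFB (log2 1.52 ± 0.13, adjusted p = 1.16e-11). On day 10 of the middle season it was at 2.47, 2.73 and 2.93 FPKM against 0.36, 0 (listed) and 0.24 FPKM (log2 1.64 ± 0.13, adjusted p = 2.95e-12). LOC_Os05g42000 was higher in CHT025 on day 10 of the early season (log2 1.73 ± 0.14, adjusted p = 8.97e-12), and LOC_Os06g48030 was at 1.68 ± 0.135 against 0.223 ± 0.0961 FPKM there (SD, n = 3; log2 1.13 ± 0.11).

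WFB was higher for LOC_Os07g48040 in 3 of the 4 comparisons, with the largest difference on day 10 of the early season (log2 -2.27 ± 0.13, adjusted p = 8e-16). LOC_Os08g41090 on that day was at 39.56, 40.39 and 42.67 FPKM in WFB and 7.12, 8.88 and 8.25 FPKM in CHT025 (log2 -2.21 ± 0.08, adjusted p = 4.75e-20). LOC_Os04g59150 on day 10 of the middle season was at 10.67, 9.49 and 9.41 FPKM in WFB and 1.04, 1.32 and 1.48 FPKM in CHT025 (log2 -2.25 ± 0.12, adjusted p = 3.99e-16). LOC_Os07g48020 and LOC_Os07g48050 were higher in WFB on both days of the middle season, by log2 differences of -3.35 and -3.73 on day 1 and -1.30 and -2.23 on day 10 (CHT025 minus WFB).

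The hybrid lay outside both parents in 3 cases, all in the middle season. A member counted as outside when it was called in the same direction against WFB and against CHT025. On day 1 of the early season 0 were above and 0 below both parents, where 0.129% and 0.807% of all genes were; at an unadjusted p below 0.05 against each parent, 1 was above and 3 below. On day 10 of the early season the counts were 0 and 0, where 0.221% and 0.0484% were, and 4 and 0 unadjusted. On day 1 of the middle season 0 were above and 1 below, where 0.14% and 0.866% were, and 1 and 6 unadjusted. On day 10 of the middle season 1 was above and 1 below, where 2.53% and 0.35% were, and 1 and 5 unadjusted.

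LOC_Os01g57730 was above both parents on day 10 of the middle season, with 11.75, 12.88 and 13.86 FPKM in WFYT025, 1.93, 1.04 and 1.91 FPKM in WFB, and 1.57, 2.26 and 0.87 FPKM in CHT025. The log2 differences were 2.41 ± 0.14 against WFB (adjusted p = 3.33e-15) and 2.46 ± 0.14 against CHT025 (adjusted p = 2.61e-15), and the hybrid libraries did not overlap either parent. On day 10 of the early season the hybrid was also the highest of the 3 varieties, at 3.06 ± 0.139 FPKM against 0.97 ± 0.15 FPKM in WFB and 1.47 ± 0.106 FPKM in CHT025 (SD, n = 3), but only the difference from WFB was called. LOC_Os08g41090 was below both parents on day 1 of the middle season, at 2.6, 1.79 and 1.96 FPKM against 8.4, 7.92 and 8.6 FPKM in WFB and 7.3, 7.54 and 8.33 FPKM in CHT025. Those differences were -1.59 ± 0.08 (adjusted p = 2.12e-16) and -1.49 ± 0.08 (adjusted p = 1.59e-15).

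LOC_Os07g48020 was below both parents on day 10 of the middle season, at 0.6, 1.08 and 1.05 FPKM against 9.89, 8.26 and 9.22 FPKM in WFB and 4.44, 2.44 and 2.67 FPKM in CHT025. The difference from CHT025 was -1.11 ± 0.22 (adjusted p = 0.000106); it was -0.91 without replicate 1 of CHT025 and -0.99 without replicate 1 of WFYT025, so that the 2-fold limit was then met against WFB alone. Without replicate 3 of WFB on day 1 of the middle season, LOC_Os07g48010 was above both parents, with a log2 difference from WFB of 1.07 in place of 0.43. Both comparisons with a parent share the hybrid libraries.

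The genes that supply substrates to these enzymes were described from their deposited descriptions. Of 27 enzymes of monolignol synthesis 21 were tested; for WFB 8 were higher and 3 lower on day 10 of the middle season, for CHT025 5 and 1, and for WFYT025 8 and 1. Early-season counts were 2 and 2 for WFB, 3 and 1 for CHT025, and 3 and 1 for the hybrid. Of all tested genes 5.14%, 1.65% and 7.92% were higher and 4.46%, 2.18% and 1.64% lower in WFB, CHT025 and WFYT025 in the middle season, and 7.13%, 3.37% and 6.0% higher and 10.5%, 6.48% and 6.19% lower in the early season. The phenylalanine ammonia-lyase genes LOC_Os02g41630 and LOC_Os02g41680 had the largest mean change: LOC_Os02g41630 went from 1.35 ± 0.51 to 188 ± 32.2 FPKM (SD, n = 3) in WFB in the middle season (log2 6.34 ± 0.24, adjusted p = 1.48e-19), and LOC_Os02g41680 from 1.16 ± 0.50 to 99.8 ± 15.4 FPKM (log2 5.56 ± 0.16, adjusted p = 1.36e-22). Both also rose in CHT025 and WFYT025 in the middle season, with log2 changes of 2.11 to 3.97, and neither was called in the early season. The median log2 change of the 21 was 0.36, 0.29 and 0.80 in WFB, CHT025 and WFYT025 in the middle season, beside 0.16, 0.01 and 0.18 for all tested genes. In the early season it was 0.13, 0.21 and 0.20 in the same order, beside -0.15, -0.09 and -0.004. The median of the list was thus above that of all tested genes in both seasons.

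Of 7 respiratory burst oxidases, which make superoxide at the plasma membrane, 5 were tested. In the early season 1 fell in WFB, none was called in CHT025 and 1 rose in WFYT025; in the middle season 3 rose in WFB, 1 in CHT025 and 2 in WFYT025, where 5.14%, 1.65% and 7.92% of all tested genes were higher. LOC_Os11g33120 rose in CHT025 in the middle season from 26 ± 0.68 to 86.7 ± 0.33 FPKM (log2 1.7 ± 0.06, adjusted p = 1.83e-20) and in WFYT025 from 26.3 ± 0.51 to 93.3 ± 1.61 FPKM (log2 1.79 ± 0.06, adjusted p = 3.91e-22). LOC_Os01g25820 fell in WFB in the early season (log2 -1.85 ± 0.07) and rose there in the middle season (log2 1.54 ± 0.07). Of 23 amine and polyamine oxidases 15 were tested, with 2 higher and 3 lower in WFB early, 0 and 1 in CHT025 early, 1 and 1 in WFYT025 early, 1 and 1 in WFB in the middle season, and 0 and 0 in the other 2. The early-season shares of all tested genes, higher then lower, were 7.13% and 10.5% for WFB, 3.37% and 6.48% for CHT025, and 6.0% and 6.19% for the hybrid. LOC_Os07g43370 had lower levels on day 10 of the early season in every variety (log2 -1.83, -1.68 and -1.89 in WFB, CHT025 and WFYT025). LOC_Os04g57550 stood at 195 ± 16.5 FPKM in WFB on day 1 of the middle season and 23.9 ± 1.5 FPKM on day 10, and at 8.61 to 47.0 FPKM on average in the other 10 groups.

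The counts of the next 3 lists stand beside all-gene shares, higher then lower, of 7.13% and 10.5% for WFB early; the middle-season shares were 5.14% and 4.46% for WFB, 1.65% and 2.18% for CHT025, and 7.92% and 1.64% for the hybrid. Of 23 laccases, which oxidise monolignols with oxygen, 3 were tested. LOC_Os01g63180 rose in the middle season in each variety, from 0.187 ± 0.228 to 33.7 ± 10.3 FPKM in WFB (log2 4.85 ± 0.17, adjusted p = 1.74e-20), and with log2 changes of 1.99 in CHT025 and 3.97 in WFYT025. LOC_Os01g63190 fell in WFB in the early season (log2 -2.67 ± 0.08). Of 37 dirigent proteins, which steer phenoxy radical coupling, 10 were tested; 2 rose in WFB in each season, 1 fell in CHT025 and 1 in WFYT025 in the middle season, and none was called in the other 2 comparisons. LOC_Os11g10800 and LOC_Os11g10850 rose in WFB in the early season with log2 changes of 2.21 and 1.95. Of 60 expansins, which loosen walls, 10 were tested, with 1 higher and 1 lower in WFB early. Middle-season counts were 2 and 1 for WFB, 0 and 2 for CHT025 and 1 and 0 for the hybrid, and none was called in the other 2 comparisons. The beta-expansin LOC_Os06g47360 rose in WFB in the middle season (log2 4.29 ± 0.51, adjusted p = 1.77e-08), and LOC_Os09g29710 fell in CHT025 (log2 -2.64 ± 0.22, adjusted p = 2.55e-11). Over the 6 day comparisons the median log2 change ran from -0.08 to 1.15 for respiratory burst oxidases, from -0.30 to 0.07 for amine oxidases, from -0.32 to 0.12 for laccases, from -0.16 to 0.34 for dirigent proteins and from -0.48 to 0.19 for expansins. Where limma called 0 genes of a list in a direction, between 0 and 6 had an unadjusted p below 0.05.

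The authors' deposited table marks as significant 12 members with the higher value on day 1 and 3 with the higher value on day 10 for WFB early; the pairs were 7 and 3 for CHT025 early and 8 and 6 for WFYT025 early. For the middle season the authors' deposited table marks 8 and 10 members for WFB, 7 and 0 for CHT025, and 6 and 5 for the hybrid. The share of all genes marked in the same way and the threshold of the mark are not given here. These counts thus do not show whether members were marked more often than genes at large. Every member called in a day comparison was also significant in the authors' deposited table. Those lists also hold members that were not tested here, namely 3 in WFB and 2 in CHT025 in the middle season, 1 in WFYT025 in the middle season and 1 in WFB in the early season.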

How the data were processed

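The authors deposited 6 tables, each with the day 1 and day 10 libraries of 1 variety in 1 season. FPKM is the unit per the file headers, beside the authors' log2 ratio (checked to be day 1 over day 10) and the authors' p-value and q-value. The submitters' processing notes name HISAT, StringTie and edgeR; for build and annotation, the sources used here give nothing. The early WFYT025 table had 1 broken line and 7534 recurring lines, which were dropped, and 15 further members with this description at an FPKM of 0, which were not used.

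In R 4.3.3, limma 3.58.1 modelled log2(FPKM + 1) by 12 group means across the 36 libraries, with intensity trend, 24 residual degrees of freedom and two-sided tests. P-values were adjusted over 18585 genes; a call needs an adjusted p below 0.05 and at least a 2-fold change. The script was tested on simulated data. The median change of all genes per comparison lay between -0.15 and 0.22, and between 0.12 and 0.35 for the differences between seasons. Members and lists were chosen with earlier results of these data known. Named were the 10 most abundant members; per comparison the 2 largest called increases and decreases; members called 1 way in at least 5 of 6 day or season comparisons; and 2 genes per pathway list. LOC_Os01g22352, the chromosome 7 run and members named for a left-out or a single high library were chosen after their values were seen. Alternatives were a pseudocount of 0.1, other filters, quantile normalization, no trend, fewer libraries, a replicate block and leaving out each library. Replicate numbers were not used as pairs. Sequences and coordinates were not used.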

Additional observations from a re-analysis of the deposited data

Results flagged for a closer look

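The change from day 1 to day 10 differed between the seasons for the members below, each tested as the middle-season log2 change minus the early-season one; that difference is what put them here. In WFB the difference was 4.05 for LOC_Os03g55410, 3.02 for LOC_Os08g41090, -2.69 for LOC_Os07g48020 and -1.58 for LOC_Os07g48050. In CHT025 it was 3.13 for LOC_Os08g41090, 2.56 for LOC_Os07g48040, -1.41 for LOC_Os05g42000 and -1.18 for LOC_Os01g16450. In WFYT025 it was 3.85 for LOC_Os08g41090, 2.40 for LOC_Os07g48040, -2.33 for LOC_Os05g42000 and -1.86 for LOC_Os07g48020. All have an adjusted p below 0.05 from limma. With a pseudocount of 0.1 FPKM the WFB difference of LOC_Os07g48050 was -1.18 (adjusted p = 0.329), which ends that call. LOC_Os08g41090 appears in all 3 varieties, and LOC_Os07g48020 has a negative difference in WFB and WFYT025. The season cannot be told apart from a batch.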

How the results depend on the processing

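Of 46 counts of called members, 28 moved by more than 1.5 times with a pseudocount of 0.1 FPKM, 13 with a filter of 5 FPKM in 3 libraries and 9 with quantile normalization. None moved without the filter, without the trend, with the compared libraries alone or with the replicate block, where WFB early kept 8 lower and 0 higher. Same-numbered replicates did not deviate together (r -0.293 to 0.352), and 0 of 24 comparisons had every r above 0.1. Counts are given as higher then lower, for those that moved. With a pseudocount of 0.1, the day comparisons gave 4 higher in WFB early, 4 in CHT025 early, 8 in WFYT025 early, 7 and 9 in WFB middle, 5 lower in CHT025 middle, and 5 and 4 in WFYT025 middle. Season comparisons gave on day 1, 11 higher for WFB, 8 for CHT025 and 8 for the hybrid, and 11 and 4, 5 and 5, and 5 and 7 on day 10. Parent comparisons gave 4 and 5 on day 1 and 8 and 5 on day 10 in the early season, and 9 lower on day 1 and 3 higher on day 10 in the middle season. Differences between seasons gave 7 lower in CHT025 and 7 lower in WFYT025. Outside both parents were 1 above on day 10 early, 3 below on day 1 and 2 below on day 10 in the middle season. With the filter at 5 FPKM the counts were 0 higher in CHT025 early, 1 higher in WFYT025 early, 0 lower in CHT025 middle and 1 lower in WFYT025 middle over the days; 2 higher in CHT025 and 1 in WFYT025 on day 1 and 0 in CHT025 on day 10 between seasons; 0, 0, 2 and 0 higher in the 4 parent comparisons; and 4 and 1 for CHT025 between day changes. Fewer members pass that filter. With quantile normalization they were 2 higher in WFB early, 5 lower in WFYT025 middle, 8 higher in WFB and 3 in CHT025 on day 1, 3 lower in CHT025 on day 10, 3 and 9 between parents on day 1 of the middle season, and, between day changes, 4 higher in CHT025 and 5 lower in WFYT025. Where no construction is named, the cause was not tested. Leaving out 1 library moved 7 counts: 0 to 1 higher in WFB early, 1 to 2 lower in CHT025 middle, 1 to 2 higher and 1 to 2 lower for CHT025 between seasons on day 10, 1 to 2 higher between parents on day 1 early, 0 to 1 above both parents on day 1 and 1 to 0 below on day 10 of the middle season. Of 169 single calls, 21 were lost in some fit without 1 library, all with a log2 size of 1.0 to 1.24. Of 64 named changes none reversed; the season difference of LOC_Os07g48050 in WFB was -1.18 (adjusted p = 0.329) with the pseudocount of 0.1. As a share of the library sum, the WFYT025 early ratio of summed FPKM was 0.504. Depth is unknown, so precision at low FPKM could not be given.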
